A study of Mus musculus with 8 samples.

Results

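The 9 genes described here, Brd2, Brd3, Hexim1, Larp7, Mepce, Cdk9, Ccnt1, Ccnt2 and Aff4, were chosen by name for their roles in reading acetylated histones and in controlling the kinase P-TEFb. All 9 were found among 17488 genes in the deposited table. They were measured by RNA sequencing of whole tumours from 8 mice homozygous for TH-MYCN, a transgene in which the tyrosine hydroxylase promoter drives human MYCN in cells of the sympathetic lineage. Tumours measured 200 to 300 mm3 when treatment began, at about 6 weeks of age. The panobinostat group (n = 4 animals) received 2 doses of 5 mg/kg given 24 h apart, and the vehicle group (n = 4 animals) received vehicle on the same schedule. Panobinostat is a hydroxamate inhibitor of histone deacetylases (HDACs), and tumours were taken 4 h after the second dose. Each library came from 1 animal and held tumour and stromal cells together, so fewer cells of a type and less RNA per cell cannot be told apart.

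BET proteins carry paired bromodomains that bind acetylated lysines on histone tails, and they recruit P-TEFb to promoters and enhancers. P-TEFb consists of the kinase CDK9 with cyclin T1 or T2, and it phosphorylates RNA polymerase II and pausing factors so that polymerase leaves the promoter-proximal pause. Much of the cell's P-TEFb is held inactive in a particle built on 7SK RNA, in which HEXIM1 inhibits the kinase, LARP7 protects the end of the RNA and MEPCE caps it. Released P-TEFb joins BET proteins or the super elongation complex, whose scaffold is AFF4 or AFF1. MYCN-driven neuroblastoma cells are known to be sensitive to BET inhibitors, and HEXIM1 is widely used as a transcript that responds to them.

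Transcripts of both BET readers, of 2 of the 3 proteins of the 7SK particle and of the scaffold Aff4 fell with panobinostat. Hexim1, which encodes the P-TEFb inhibitor, rose, and the kinase gene Cdk9 and both cyclin T genes made no call. In all, 1 of the 9 genes was higher and 5 were lower in limma's test at a Benjamini-Hochberg adjusted p under 0.05. Of the 16157 genes tested, 63.7% made a call, 31.2% higher and 32.4% lower. A total of 6 calls among 9 genes is thus close to the share of all genes, and nothing about these genes as a group is read from it. The median log2 change was -0.67 over the 9 genes and -0.02 over all tested genes. The 4 values of the panobinostat group and the 4 of the vehicle group did not overlap in 6 of the 9 genes, against 59.7% of all tested genes. Against a 1.5-fold change, 3 of the 9 genes (Brd3, Larp7 and Mepce) passed, where 30.9% of all tested genes did.

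Promoter sequences show which start regions lie upstream of genes that moved in opposite directions or made no call. RefSeq promoters (GRCm38.p6) were at hand for 8 of the 9 genes, and the 4 shown are those of Hexim1 (higher), Larp7 and Aff4 (lower) and Ccnt2 (no call). Each is written 5′ to 3′ on the strand of its gene and ends at the RefSeq start, except that of Hexim1, which ends where the GENCODE M21 exon begins. Capitals mark matches on either strand to CCAAT, the GC box GGGCGG, the E-box CACGTG, the CRE TGACGTCA and TATAAA.
Hexim1, chr11:103116075-103116230, plus strand: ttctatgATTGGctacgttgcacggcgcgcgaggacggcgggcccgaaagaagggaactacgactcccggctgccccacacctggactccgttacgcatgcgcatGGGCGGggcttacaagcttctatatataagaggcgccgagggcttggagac
Larp7, chr3:127553350-127553599, minus strand: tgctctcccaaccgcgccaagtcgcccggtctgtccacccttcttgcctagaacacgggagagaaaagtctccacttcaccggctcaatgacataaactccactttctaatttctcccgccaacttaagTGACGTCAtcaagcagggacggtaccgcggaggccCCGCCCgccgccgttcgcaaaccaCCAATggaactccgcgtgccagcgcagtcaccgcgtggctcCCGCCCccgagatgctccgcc
Aff4, chr11:53350517-53350766, plus strand: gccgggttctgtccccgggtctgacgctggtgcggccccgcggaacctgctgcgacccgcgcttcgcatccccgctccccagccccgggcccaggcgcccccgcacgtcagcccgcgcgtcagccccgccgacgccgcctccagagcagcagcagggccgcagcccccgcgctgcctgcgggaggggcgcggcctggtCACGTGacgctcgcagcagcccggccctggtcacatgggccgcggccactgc
Ccnt2, chr1:127773914-127774163, plus strand: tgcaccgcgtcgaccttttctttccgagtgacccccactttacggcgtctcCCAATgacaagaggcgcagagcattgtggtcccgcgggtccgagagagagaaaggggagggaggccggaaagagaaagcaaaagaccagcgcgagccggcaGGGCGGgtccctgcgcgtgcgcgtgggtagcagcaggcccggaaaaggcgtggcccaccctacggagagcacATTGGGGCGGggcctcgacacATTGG
The Hexim1 stretch of 156 bases held 1 CCAAT match and 1 GC box, and that of Ccnt2 held 3 CCAAT matches and 2 GC boxes, of which a neighbouring pair overlaps by 1 base. Larp7 held 1 CRE, 1 CCAAT match and 2 GC boxes, and Aff4 held 1 E-box. Windows of 250 and 223 bases before starts of Brd2, not shown, were also searched and held no match to any of these motifs. Among 32851 RefSeq promoters, the 250 bases before the start held CCAAT in 33.8%, the GC box in 32.7%, TATAAA in 12.4%, the E-box in 6.02% and the CRE in 1.55%. These matches describe the letters in these windows and do not show binding.

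Read totals were 18664066 to 22235545 in the panobinostat libraries and 22055658 to 23830026 in the vehicle libraries, and the 9 genes had between 458 and 9714 reads each. Markers of other cells moved with treatment, and their part in the results on these genes was not tested. Macrophage markers summed to 3274 to 5813 CPM with panobinostat and 693 to 1316 CPM with vehicle (11 of 12 higher), and fibroblast and mural markers to 11399 to 20898 CPM with panobinostat and 2153 to 6321 CPM with vehicle (11 of 12 higher). Schwann cell markers summed to 229 to 602 CPM with panobinostat and 265 to 398 CPM with vehicle (6 of 10 higher, 1 lower), and sympathoadrenal markers, the check of the tumour label, to 1637 to 2179 CPM with panobinostat and 3326 to 4145 CPM with vehicle (7 of 12 lower, 5 without a call, none at 0). Adrenal cortex markers summed to 39.6 to 2756 CPM with panobinostat and 9.21 to 11.4 CPM with vehicle (all 5 tested of 8 higher), and liver markers to 57.7 to 9359 CPM with panobinostat and 21.5 to 27.6 CPM with vehicle (both tested of 10 higher). Of these, Cyp11b2, Nr5a1, Mc2r and Cyp3a11 were at 0 reads in at least 1 library. A gene could pass the filter of 1 CPM in 4 libraries through the panobinostat group alone. The counts of higher adrenal cortex and liver markers therefore carry no weight beside the sums. Panobinostat libraries 3 and 4 held the most adrenal cortex and liver reads. Without both of them the 9 genes gave the same calls, with changes of -0.81 for Brd2, -1.23 for Brd3, 0.88 for Hexim1, -1.25 for Larp7, -1.08 for Mepce and -0.64 for Aff4. Panobinostat library 1 remained in that fit, with an adrenal cortex sum of 722 CPM and a liver sum of 58.2 CPM. Leaving out libraries 3 and 4 thus did not remove such reads from the group. The labels give no batch, litter or date, and anything of the sort that differed between the animals given drug and those given vehicle cannot be told apart from treatment.

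**Figure D1:**
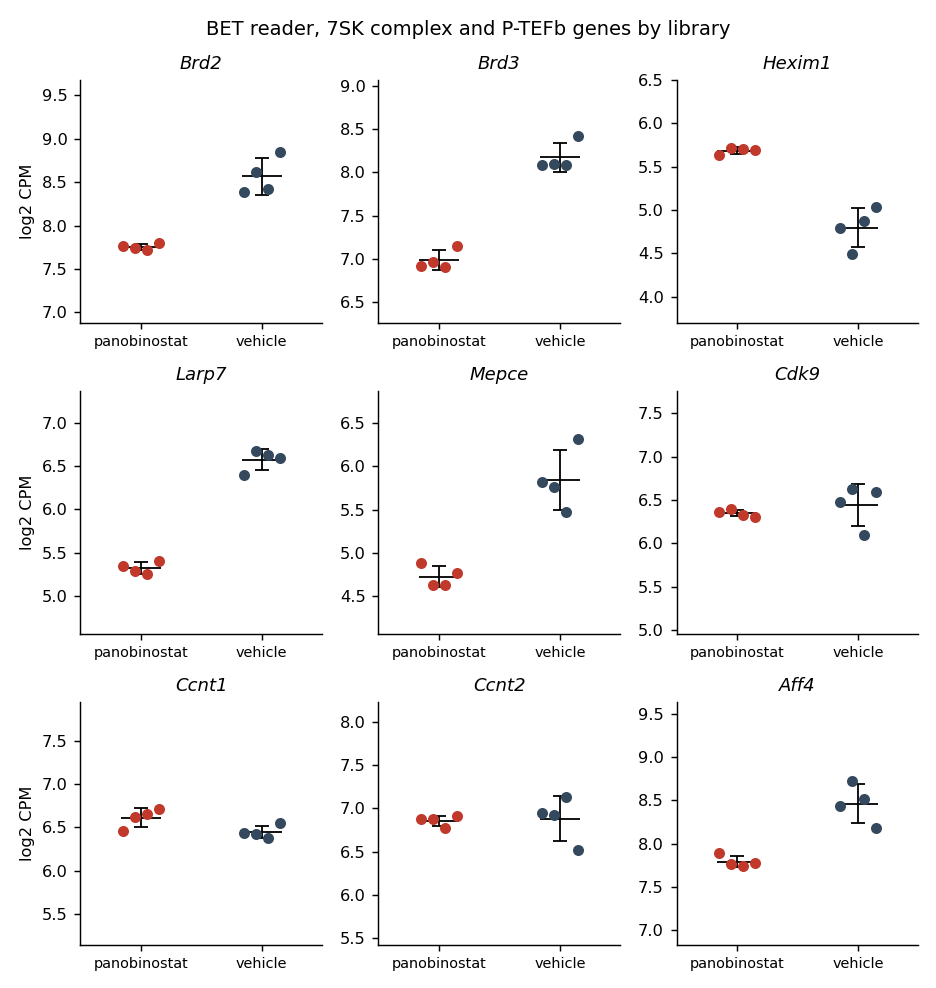
Log2 CPM of each of the 9 genes in every library, panobinostat left and vehicle right; points are libraries, bars are the mean and SD (n = 4 per group), and every panel spans the same range of log2 units. The groups are apart for Brd2, Brd3, Hexim1, Larp7, Mepce and Aff4 and overlap for Cdk9, Ccnt1 and Ccnt2.

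Brd2 and Brd3 encode BET proteins found in most tissues, and Brd2 had the higher level here, per length as well. Brd2 (chromosome 17, 34112023 to 34122634, mm10) stood at 218, 213, 211 and 222 CPM in panobinostat tumours 1 to 4, against 333, 394, 343 and 459 CPM in vehicle tumours 1 to 4. CPM is a count scaled to an effective library size, which differs from the read total. The panobinostat tumours differed by less than the vehicle tumours did, and each was below every vehicle tumour. On the log2 scale Brd2 fell by 0.81 (SE 0.11, limma adjusted p = 2.04e-04), a level 0.569 times that with vehicle. After quantile normalization the change of Brd2 was smaller, at -0.48, and still a call. Brd3 (chromosome 2, 27445579 to 27507662) stood at 121, 125, 120 and 142 CPM with panobinostat and at 272, 273, 271 and 343 CPM with vehicle. It fell by 1.19 (SE 0.11, adjusted p = 2.10e-05), to 0.440 times the vehicle level. Vehicle tumour 4 was the highest library for both genes, and without it the log2 changes were still calls in the same direction.

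The 2 readers did not change to the same extent. The ratio of Brd2 to Brd3 within a library, which a single scaling factor per library leaves unchanged, had a log2 value of 0.77 ± 0.092 with panobinostat and 0.39 ± 0.10 with vehicle (mean ± SD, n = 4). The difference of 0.37 was positive in every comparison of a panobinostat with a vehicle library. Its two-sided exact permutation p was 0.0286, the smallest that 70 assignments allow, and 0.05 after adjustment over 7 ratios, which is at the threshold and not under it. The adjusted value depends on how many of the 7 ratios reach that smallest p, so it does not grade this ratio alone. After quantile normalization, which does alter such ratios, the difference was 0.42 (adjusted p = 0.0667 by the same exact test). The adjusted p rose because the ratio of Aff4 to Cdk9, described below, no longer reached the smallest p. Brdt, the BET gene best known from the testis, had a log2 change of -0.35 (SE 0.16) and made no call (limma adjusted p = 0.0838).

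An exon of Brd2 overlaps the MHC class II gene H2-DMa on the opposite strand over 360 bases, 4.6% of the Brd2 exon length. The antisense gene CR974462.3 shares 405 exon bases with Brd2, also on the opposite strand, and is not listed in the deposited table. Whether counting used strand is not given in the sources used here. H2-DMa had 398 to 683 reads in panobinostat tumours and 76 to 227 in vehicle tumours, a log2 change of 2.15 (SE 0.29), opposite in direction to that of Brd2. Brd2 itself had 4114 to 4860 reads in panobinostat tumours and 7548 to 9714 in vehicle tumours.

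The transcripts that encode the 7SK particle's proteins moved in different directions. Hexim1 (chromosome 11, 103116231 to 103119725), a gene with a single exon, stood at 49.5, 52.5, 51.9 and 51.8 CPM in panobinostat tumours 1 to 4, against 27.8, 22.5, 29.2 and 32.7 CPM in vehicle tumours 1 to 4. Every panobinostat tumour was above every vehicle tumour. Hexim1 rose by 0.89 on the log2 scale (SE 0.12, 95% interval 0.61 to 1.17, limma adjusted p = 2.30e-04), a level 1.85 times that with vehicle. Against a 1.5-fold change its adjusted p was 0.0569.

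Larp7 (chromosome 3, 127536714 to 127553349), which encodes the 7SK-binding La-related protein, stood at 40.8, 39.1, 38.3 and 42.3 CPM with panobinostat and at 84.3, 102, 98.6 and 96.2 CPM with vehicle. The groups were far apart beside the spread within each. Larp7 fell by 1.25 (SE 0.092, limma adjusted p = 9.36e-06), to 0.422 times the vehicle level, and had the lowest adjusted p of the 9 genes. Mepce (chromosome 5, 137781906 to 137787655), which encodes the methyltransferase that caps 7SK, stood at 29.5, 24.8, 24.7 and 27.2 CPM with panobinostat and at 56.4, 54.1, 44.5 and 79.5 CPM with vehicle. Its vehicle tumours varied more than those of any other of the 9 genes on the log2 scale (SD 0.35). Mepce fell by 1.11 (SE 0.17, limma adjusted p = 3.92e-04).

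The ratio of Larp7 to Mepce had a log2 value of 0.60 ± 0.088 with panobinostat and 0.73 ± 0.38 with vehicle (mean ± SD, n = 4), a difference of -0.13 with overlapping groups (exact permutation p = 0.514, also after adjustment). The ratio of Hexim1 to Larp7 had a log2 value of 0.36 ± 0.086 with panobinostat and -1.78 ± 0.29 with vehicle, a ratio 4.39 times as high with panobinostat. The ratio of Hexim1 to Cdk9 was -0.66 ± 0.052 with panobinostat and -1.65 ± 0.37 with vehicle, a 1.98-fold difference. For both ratios the groups did not overlap, with an exact permutation p of 0.0286 and an adjusted p of 0.05, again at the threshold. After quantile normalization these 2 differences were 2.04 and 0.81, with an adjusted p of 0.0667 for each. As for Brd2 to Brd3, that value rose because fewer of the tested ratios reached the smallest exact p. Hexim2, a paralog of Hexim1 that also binds 7SK, was scarce, with 45 to 59 reads in panobinostat and 88 to 144 in vehicle libraries. It fell by 0.93 on the log2 scale (SE 0.23, limma adjusted p = 0.0056), the opposite direction to Hexim1.

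**Figure D2:**
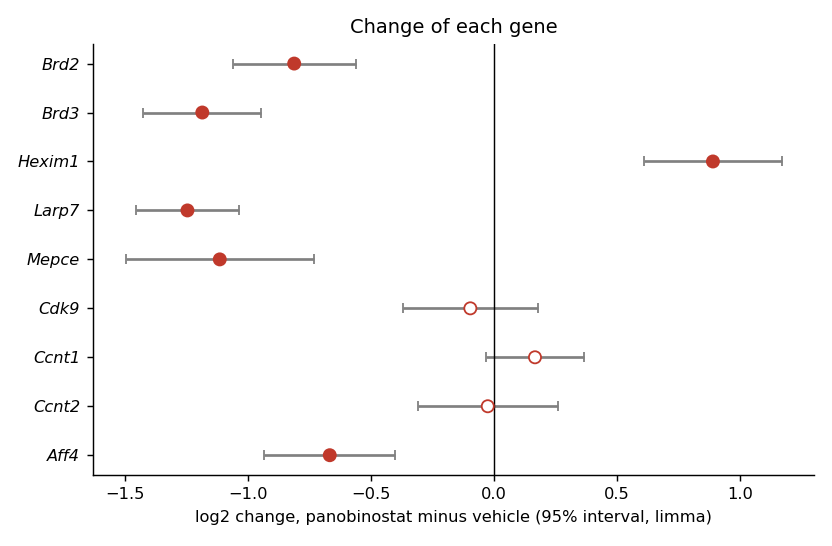
Log2 change of each gene (panobinostat minus vehicle) with its 95% interval from limma, n = 4 per group; filled points have an adjusted p under 0.05 and open points do not. Hexim1 at 0.89 is the single filled point above 0, and the intervals of Cdk9, Ccnt1 and Ccnt2 include 0.

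The genes of P-TEFb itself made no call. Cdk9 (chromosome 2, 32705784 to 32713076), the catalytic subunit, stood at 82.2, 84.0, 80.6 and 79.3 CPM with panobinostat, all within the range of the vehicle tumours, which stood at 88.9, 98.6, 68.3 and 96.4 CPM. The log2 change was -0.10 (SE 0.12, 95% interval -0.37 to 0.18, limma adjusted p = 0.506). Vehicle tumour 3 was the lowest library. Without it the change was -0.21 and passed the threshold (adjusted p = 0.0461).

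Ccnt1 (chromosome 15, 98538689 to 98570923) encodes cyclin T1, the more studied partner of CDK9. It stood at 87.7, 98.4, 101 and 105 CPM with panobinostat and at 86.2, 85.5, 83.3 and 93.6 CPM with vehicle, and the groups overlapped through panobinostat tumour 1. The log2 change was 0.17 (SE 0.088, 95% interval -0.03 to 0.36, limma adjusted p = 0.126). Ccnt1 passed the threshold as higher with quantile normalization (0.34), with libraries scaled to read totals (0.28) and with library weights (0.21). Its exons share 695 bases with the antisense gene 9330020H09Rik, with 16 to 26 reads in panobinostat tumours and 21 to 36 in vehicle tumours.

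Ccnt2 (chromosome 1, 127774164 to 127808061), which encodes cyclin T2, stood at 117, 117, 109 and 120 CPM with panobinostat, within the range of the vehicle tumours at 124, 122, 140 and 92.0 CPM. The log2 change was -0.03 (SE 0.13, 95% interval -0.31 to 0.26, limma adjusted p = 0.866). The ratio of Ccnt1 to Ccnt2 differed by 0.19 on the log2 scale between panobinostat and vehicle (exact permutation p = 0.314, adjusted 0.367), and that of Ccnt1 to Cdk9 by 0.26 (p = 0.0857, adjusted 0.12). These intervals and tests do not show that the P-TEFb genes stayed level, since a level 1.29 times that with vehicle lies within the 95% interval of Ccnt1 and 0.773 times within that of Cdk9.

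Aff4 (chromosome 11, 53350833 to 53421830), the scaffold that joins P-TEFb to ELL proteins in the super elongation complex, stood at 238, 217, 214 and 220 CPM with panobinostat. In vehicle tumours it stood at 345, 423, 366 and 290 CPM. The lowest vehicle tumour was still above the highest panobinostat tumour. Aff4 fell by 0.67 (SE 0.12, limma adjusted p = 9.28e-04), to 0.629 times the vehicle level, and against a 1.5-fold change it made no call (adjusted p = 0.513). After quantile normalization the change was -0.33, and it passed the threshold narrowly (limma adjusted p = 0.0461). The ratio of Aff4 to Cdk9 had a log2 value of 1.45 ± 0.072 with panobinostat and 2.02 ± 0.35 with vehicle, with no overlap (mean ± SD, n = 4, exact permutation p = 0.0286, adjusted 0.05). The difference was -0.57, and after quantile normalization it was -0.39 with overlapping groups (exact permutation, adjusted p = 0.16).

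**Figure D3:**
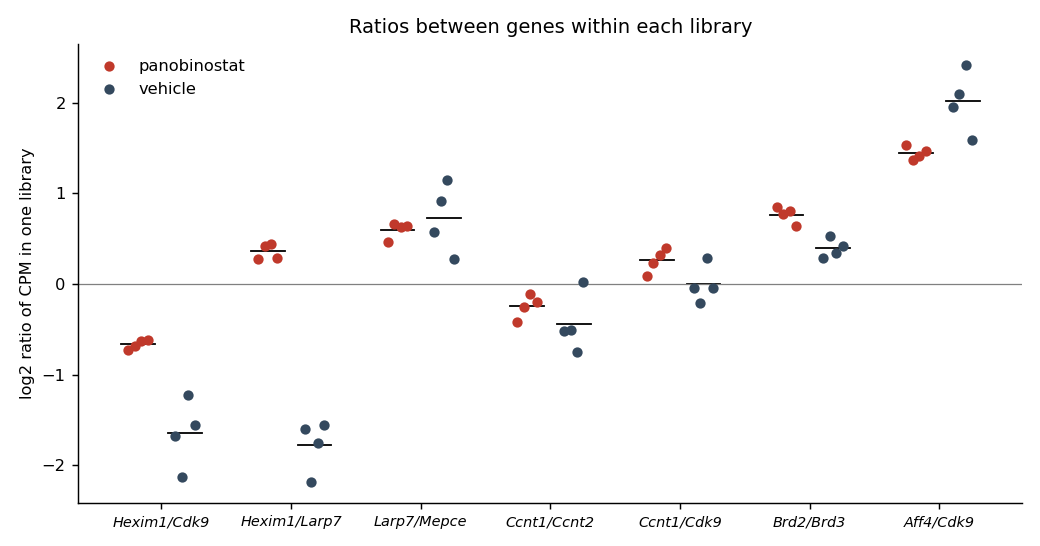
Log2 ratio of the CPM of 2 genes within each library for the 7 ratios tested, panobinostat left and vehicle right in each pair; points are libraries and lines are group means. The groups are apart for Hexim1/Cdk9, Hexim1/Larp7, Brd2/Brd3 and Aff4/Cdk9 and overlap for the other ratios.

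Levels of different genes were set side by side as CPM per kb of merged exon length. With panobinostat Brd2 came first at 27.6 ± 0.62 CPM per kb (mean ± SD, n = 4) and Mepce last at 7.47 ± 0.64. Between them stood Cdk9 (17.7), Brd3 (17.3), Larp7 (16.96) and Aff4 (16.5), neighbours whose libraries overlapped, then Hexim1 at 14.7 ± 0.38, and then Ccnt1 (10.7) and Ccnt2 (9.39), which overlapped each other. With vehicle Brd2 was first again at 48.8 ± 7.36 CPM per kb, overlapping Larp7 (40.3), which overlapped Brd3 (39.5). Below them stood Aff4 at 26.5 ± 4.10, then Cdk9 (19.1) and Mepce (16.5), which overlapped, then Ccnt2 (9.66), Ccnt1 (9.52) and Hexim1 (8.02), each overlapping the next. Hexim1 thus ranked 6 of 9 with panobinostat and 9 of 9 with vehicle. By the length of the longest coding transcript, Hexim1 ranked 7 of 9 with panobinostat and 9 of 9 with vehicle, and Cdk9 (47.0 CPM per kb with panobinostat, 50.8 with vehicle) ranked 1 in place of 2 with panobinostat and 3 in place of 5 with vehicle. In that order its libraries overlapped those of Brd2 (46.4) with panobinostat, and those of Brd3 (53.5) and Larp7 (44.9) with vehicle. Its longest coding transcript has 1733 bases against 4611 bases of merged exons.

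**Figure D4:**
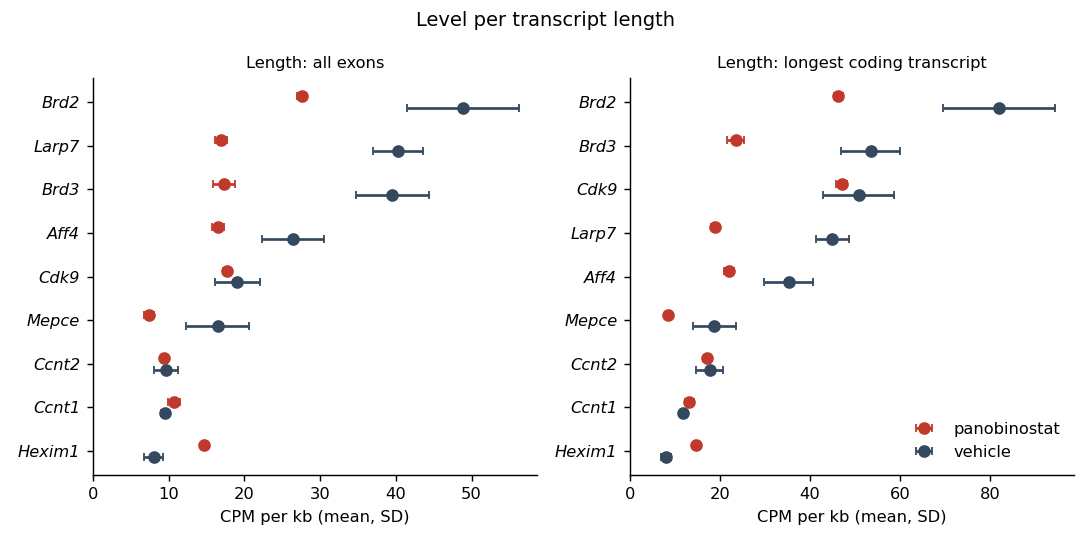
CPM per kb of each gene (mean and SD, n = 4 per group), panobinostat above vehicle for each gene, with merged exons as the length at left and the longest coding transcript at right. Hexim1 is at the bottom of the vehicle order in both panels, and the place of Cdk9 depends on the length used.

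Variation between animals was smaller with panobinostat than with vehicle for 8 of the 9 genes. The SD of log2 CPM ran between 0.032 and 0.12 in the panobinostat group and between 0.073 and 0.35 in the vehicle group, and Ccnt1 was the exception. This difference in spread was not tested, and its share over all tested genes was not counted. Library weights, fitted over all tested genes and lower for a more variable library, ran from 1.092 to 4.942 with panobinostat. With vehicle they ran from 0.2039 to 1.562. The difference in spread is therefore not read as particular to these 9 genes. By Pearson correlation over all 8 libraries, searched among 8078 other well expressed genes, the genes most like Hexim1 were Slc23a2, Epg5 and Snx11 (r from 0.998 to 0.999). Those most like Brd2 were Ptpa, Srsf2 and Noc2l (r from 0.997 to 0.998), and those most like Brd3 were Ppp2r2c, Dis3l2 and Ccar2 (r from 0.997 to 0.999). The libraries fall into the treated and untreated groups, so these values mostly describe the step between groups.

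Of 43 other genes of the pathway in 4 lists, 42 were tested, and 7 were higher and 17 lower, with a median log2 change of -0.25. These 24 calls among 42 genes are close to the 63.7% of all tested genes that made a call, and the count of each list is read against that share and against the 31.2% called higher and 32.4% called lower. Among 10 BET and 7SK partners 8 fell in limma, with a median of -0.73, and none was higher, also at an unadjusted p under 0.05 or with voom weights on recovered reads. The number that fell was 9 with library weights and with median centring, and 7 with quantile normalization and with read totals. It was 6 to 8 with 1 library left out, and 6 without panobinostat libraries 3 and 4 or at an adjusted p of 0.01. Against a 1.5-fold change it was 3. The list was chosen with results known and its share was not tested against that of all genes. It holds genes of hnRNP proteins that bind the 7SK RNA freed of P-TEFb. Hnrnpr fell by 1.203 (SE 0.080), Hnrnpa1 fell by 1.32 (SE 0.11) and Syncrip, which encodes hnRNP Q, fell by 1.05 (SE 0.095). Srsf2, a splicing factor linked to release of P-TEFb from 7SK at promoters, fell by 0.56 (SE 0.093). Jmjd6, a demethylase linked to pause release, had a log2 change of -0.15 (SE 0.12) and made no call. Ppm1g, a phosphatase reported to free P-TEFb, fell by 0.45 (SE 0.15). Genes named here beyond the 3 lowest adjusted p of each list were chosen after their values were seen.

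The super elongation complex held genes with calls in both directions, and the 6 calls among 9 tested genes are close to the share of 63.7% over all genes. Ell2, an elongation factor that binds the AFF scaffold, had 521 to 749 reads in panobinostat libraries and 33 to 118 in vehicle libraries. It rose by 3.37 on the log2 scale (SE 0.34, limma adjusted p = 3.72e-05). Aff1, the paralog of Aff4, had 6.39 ± 0.13 log2 CPM with panobinostat and 4.94 ± 0.23 with vehicle (mean ± SD, n = 4) and rose by 1.45 (SE 0.13), against the direction of Aff4. Ell rose by 0.58 (SE 0.15) and the ELL-associated factor gene Eaf2 by 0.71 (SE 0.20). Of 9 tested genes 4 were higher and 2 lower, with a median of -0.06, and the lower ones were Aff3 (-0.81, SE 0.23) and Mllt1 (-0.55, SE 0.19). The calls of Aff3 and Mllt1 were both lost without panobinostat libraries 3 and 4 together. That of Mllt1 was also lost without any single one of panobinostat libraries 1 and 2 and vehicle libraries 2, 3 and 4. After quantile normalization and after scaling to read totals 1 gene of the list was lower.

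Among 14 factors of pausing and elongation 2 were higher and 6 lower, a share of calls not far from that of all genes, and their median was -0.11. Of the negative elongation factor, which holds paused polymerase and is a substrate of P-TEFb, Nelfa fell by 1.16 (SE 0.16), Nelfcd fell by 0.94 (SE 0.12) and Nelfb fell by 0.67 (SE 0.12), while Nelfe had a change of 0.07 (SE 0.16) with no call. Within the PAF1 complex, which travels with elongating polymerase, Ctr9 rose by 0.86 (SE 0.11) and Paf1 by 0.57 (SE 0.11), whereas Leo1 fell by 0.98 (SE 0.13). Cdc73 (-0.13, SE 0.14) and Rtf1 (0.08, SE 0.085) made no call. Iws1, a partner of the elongation factor SPT6, fell by 1.00 (SE 0.10). The genes of that factor and of DSIF, Supt6 (0.13, SE 0.092), Supt5 (-0.09, SE 0.12) and Supt4a (0.07, SE 0.11), made no call. After quantile normalization 5 genes of this list were higher.

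In the list of other transcription kinases 1 of 9 genes was higher, 1 was lower and 7 made no call. That is a smaller share of calls than the 63.7% of all tested genes, and the difference was not tested. Cdk7, the kinase of TFIIH, rose by 0.35 (SE 0.089, limma adjusted p = 0.00665). Cdk12, an elongation kinase that pairs with cyclin K, fell by 0.57 (SE 0.11, limma adjusted p = 0.00123). Ccnh, the cyclin partner of CDK7, had a change of 0.21 (SE 0.10, adjusted p = 0.0968), and Ccnk, the cyclin partner of CDK12, had a change of -0.25 (SE 0.13, adjusted p = 0.128). The call of Cdk7 was lost without panobinostat libraries 3 and 4 (0.36, adjusted p = 0.0679). The median over the list was -0.07, and these counts moved with the settings. With library weights 2 genes were higher and 3 lower, with median centring 3 were lower, with scaling to read totals 2 were higher, and without vehicle library 4 there were 2 lower.

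**Figure D5:**
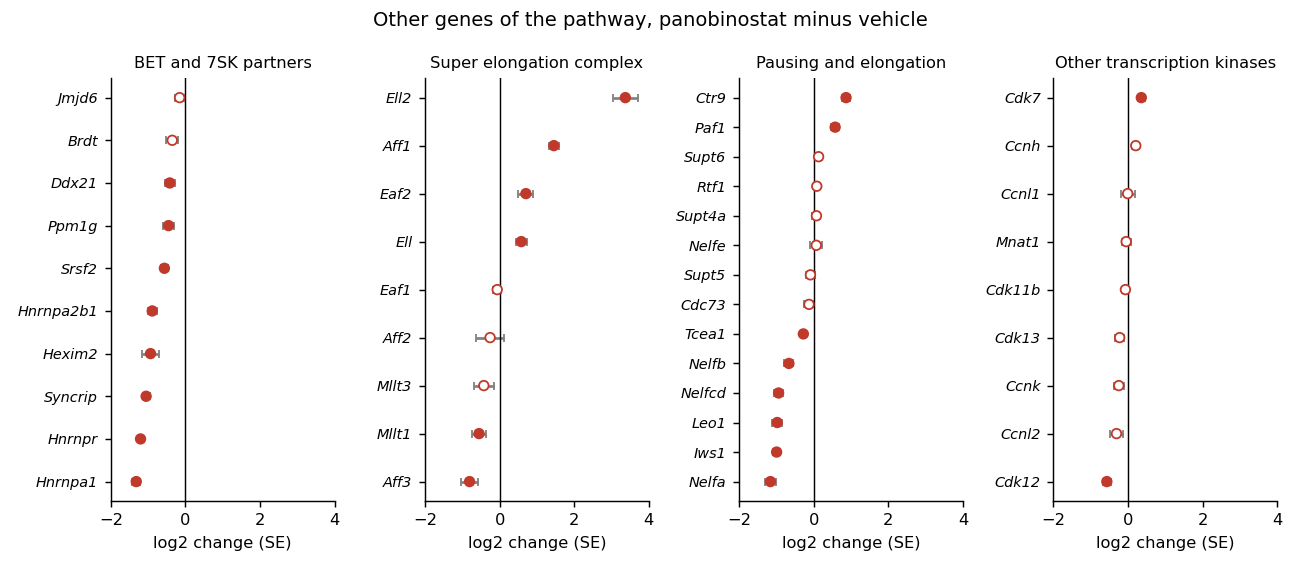
Log2 change (panobinostat minus vehicle, with SE, n = 4 per group) of the 42 other pathway genes in 4 lists, all on the same axis; filled points have an adjusted p under 0.05 in limma. Ell2 stands farthest to the right at 3.37, and every filled point among the BET and 7SK partners lies left of 0.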

How the data were processed

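Groups were taken from the labels. Per the submitters' processing notes, CASAVA 1.8.2, TopHat2, HTSeq, limma and the build mm10 were used; no source used here gives the annotation, filter or strand setting. The deposited table holds log2 CPM with 0.5 reads added, read from its numbers: undoing that form gave integers for 100% of them at a tolerance of 0.001 read. The effective library sizes recovered this way were 1.02 ± 0.013 times the read totals with panobinostat. With vehicle they were 0.94 ± 0.041 times the read totals (mean ± SD, n = 4 per group). Identifiers were matched to GENCODE M21 (17228 of 17488). A gene needed 1 CPM or more in 4 libraries or more, which kept 16157 and all 9 members. The model was limma 3.58.1 run under R 4.3.3 (lmFit, then eBayes with trended variance) with treatment alone. Tests were two-sided, with Benjamini-Hochberg adjustment over all tested genes and a threshold of 0.05. Ratios within libraries were compared by exact permutation, adjusted over 7 ratios. The fit was also run on simulated counts with far fewer changed genes than here and the same setting of spread in both groups. Nothing about these data is read from that run. Members, lists, marker lists and tests were chosen with earlier results of these data known. Named genes were the 9 members, the 3 genes with the lowest adjusted p in each pathway list and the 3 genes most correlated with Hexim1, Brd2 and Brd3. Alternatives were other filters, variance models, library weights, scalings, a pseudocount of 1 CPM, stricter tests, voom on recovered reads and libraries left out; the transcript length was added after seeing the data. A gene first held in the pathway lists is not reported here and enters none of their counts. No set test was run.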

Additional observations from a re-analysis of the deposited data

Results flagged for a closer look

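In 32 groups of 4 libraries (9 genes and 7 ratios, in each treatment), 2 held a library set apart from the other three by more than Dixon's 95% critical value, and chance flags about 1 in 20 groups. Brd3 in vehicle tumour 4 was at 8.42 log2 CPM, where the other vehicle tumours were at 8.08 to 8.10. The log2 ratio of Larp7 to Mepce in panobinostat tumour 1 was 0.47, where the other panobinostat tumours were at 0.63 to 0.66.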

How the results depend on the processing

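Across 21 alternatives, Brd3, Larp7 and Mepce kept their direction and their calls, with log2 changes of -1.302 to -0.90, -1.36 to -1.13 and -1.24 to -0.96. Brd2, Hexim1 and Aff4 did so except against a 1.5-fold change (adjusted p = 0.0992, 0.0569 and 0.513), with ranges of -0.93 to -0.48, 0.77 to 1.04 and -0.82 to -0.33; the smallest changes of Brd2 and Aff4 came with quantile normalization. Members higher numbered 2 under quantile normalization, under library weights and when scaled to read totals, since Ccnt1 was added. Against a 1.5-fold change 0 members were higher and 3 lower, 2 and 7 of the pathway genes were higher and lower, and 4988 genes changed in all, against 10289; such a test asks for larger changes by construction. Leaving out 1 library at a time, 1 member was higher and 5 to 6 lower, 7 pathway genes were higher and 14 to 18 lower, and 9175 to 10467 genes changed. The ratio differences then ran over 0.82 to 1.13 (Hexim1 to Cdk9), 2.00 to 2.21 (Hexim1 to Larp7), 0.34 to 0.42 (Brd2 to Brd3) and -0.71 to -0.44 (Aff4 to Cdk9). No exact p is given for ratios with 3 libraries against 4. After quantile normalization they were 0.81, 2.04, 0.42 and -0.39, the last with overlapping groups. Scaling moved the median change of all genes between -0.14 (quantile normalization, median centring) and 0.10 (read totals). Cdk9 and Ccnt2 changed sign, without a call, with quantile normalization (0.057 and 0.20) and read totals (0.022 and 0.093), and Ccnt2 also without panobinostat library 3 (0.0023) or vehicle library 3 (0.056). No paired analysis was possible because the labels number the animals without pairing them.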
